A study of Mus musculus with 14 samples.

Results

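The genes described are 6 genes of the B lineage and of antibody secretion, Pou2af1, Cd79a, Cd79b, Ms4a1, Mzb1 and Jchain, in blood progenitors of mice with and without Tet2. They were chosen by the measured knockout minus wild-type differences in LSK and in CMP cells, as genes thought to run in opposite directions there, so those 2 differences are given as a description, with no test. The array carries 7 probe sets that name 1 of these genes, of 45101 probe sets in all, and the 6 genes stand among 18194 genes measured. The choice held in part only. Pou2af1, Cd79a, Mzb1 and Jchain were lower in knockout LSK cells and higher in knockout CMP cells on both arrays of each group, Cd79b was lower in knockout LSK cells but overlapped between genotypes in CMP cells, and Ms4a1 was higher in the knockout in both.

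RNA was hybridised from 7 groups of 2 arrays each, all on a B6/129 background. LSK cells are lineage-negative bone marrow cells with c-Kit and Sca1, CMP are common myeloid progenitors, and GMP are granulocyte-macrophage progenitors, gated as Sca1-negative with high Fc gamma receptor and CD34. Each was sorted from wild-type and knockout mice, for which the labels name the genotypes Tet2+/+ Mx+ and Tet-/-Mx+. LSK and CMP cells came from littermates 4 weeks after deletion induced with pIC, so Mx and pIC are common to both genotypes, and no time is given for GMP. The seventh group, replated knockout cells, is CD150+ knockout LSK cells after 5 rounds of plating. pIC acts by inducing interferon, the Mx promoter is switched on by interferon in many cell types besides blood cells, and neither the ages of the mice nor how many mice gave each array was analysed here. Because no label ties the 2 arrays of a group to different mice, p-values measure only the spread between these arrays, which may be technical.

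Antibodies are made by B cells and by the plasma cells that B cells become. Pou2af1, also called OCA-B or BOB.1, encodes a coactivator without a DNA-binding domain of its own that joins the POU factors Oct-1 and Oct-2 on octamer elements of immunoglobulin promoters. Cd79a and Cd79b encode the paired signalling chains of the B cell receptor, and Ms4a1 encodes CD20, a surface protein of B cells after their earliest stages. Mzb1 encodes an endoplasmic reticulum protein that helps antibody assembly and secretion, and Jchain encodes the joining chain that links IgM and IgA into polymers. Transcription of several of these genes, at a low level, is known in early progenitors before B lineage commitment.

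Pou2af1, Cd79a, Mzb1 and Jchain shared the opposite pattern, and the sequences just before the start of 3 of them, without Mzb1, are shown. CpG, the dinucleotide in which Tet2 oxidises methylated cytosine, is marked in these sequences. Each is the 250 bases before the RefSeq start on GRCm38.p6, with CpG in capitals. Pou2af1 is chr9:51213440-51213689 on the plus strand, Cd79a is chr7:24897247-24897496 on the plus strand and Jchain is chr5:88527898-88528147 on the minus strand, all printed 5′ to 3′ along the gene.
Pou2af1: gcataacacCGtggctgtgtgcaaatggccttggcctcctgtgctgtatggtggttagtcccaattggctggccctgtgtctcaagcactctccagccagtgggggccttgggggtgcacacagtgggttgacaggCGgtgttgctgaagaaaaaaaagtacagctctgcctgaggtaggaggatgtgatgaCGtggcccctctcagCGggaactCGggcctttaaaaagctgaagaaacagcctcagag
Cd79a: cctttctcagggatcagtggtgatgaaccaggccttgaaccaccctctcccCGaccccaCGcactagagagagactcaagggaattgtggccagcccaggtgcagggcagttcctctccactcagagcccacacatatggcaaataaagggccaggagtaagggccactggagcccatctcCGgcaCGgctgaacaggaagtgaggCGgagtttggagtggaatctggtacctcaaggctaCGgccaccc
Jchain: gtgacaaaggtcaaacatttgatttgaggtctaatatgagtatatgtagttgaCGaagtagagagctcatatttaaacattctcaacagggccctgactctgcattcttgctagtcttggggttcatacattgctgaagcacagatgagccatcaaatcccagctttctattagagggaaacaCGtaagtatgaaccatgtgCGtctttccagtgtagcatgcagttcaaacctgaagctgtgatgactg
The Pou2af1 sequence held 5 CpG and 56.0% G and C. The Cd79a sequence held 6 CpG and 58.8%, and the Jchain sequence 3 CpG and 42.0%. Over 32851 RefSeq promoter windows of that length the median was 6 CpG, and 49.6%, 53.7% and 37.8% of windows held as few CpG as Pou2af1, Cd79a and Jchain, or fewer. On both strands, the octamer ATGCAAAT and the palindromic EBF1 motif (TCCC and GGGA with any 2 bases between) were found in 0 of the 3 sequences, against 1.6% and 0.779% of all windows. The TATA box TATAAA was also in 0 of the 3, against 12.4% of windows. The E-box CANNTG, found in 66.2% of windows, occurred 2 times each before Pou2af1 and Cd79a and 3 times before Jchain. The core of the cAMP response element, TGACG, occurred 61 bases before the Pou2af1 start and 200 bases before the Jchain start, was not in the Cd79a window, and was in 17.8% of windows. These matches describe letters in a window, not bound sites.

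Intensities are linear RMA values, and a level is the geometric mean of a group's 2 arrays. Medians of the 14 arrays lay between 31.16 and 32.98, and the arrays of a group correlated at 0.9613 to 0.9929 over all probe sets. The brightest of 27 bacterial control probe sets, which mouse RNA should not bind, set a floor for each array of 20.8 to 27.8. A fold against a group with both arrays at or below the floor is written "at least". Tet2 itself read 454 to 2040 on the 6 wild-type and 855 to 2380 on the 6 knockout sorted arrays at its brighter probe set, and 65.9 to 209 and 17 to 175 at the other. Whether either probe set covers deleted sequence was not analysed here, and so neither serves as a test of genotype. Kit was above the floor on all 14 arrays. Fcgr3, the gated Fc gamma receptor, lay at 382 to 571 in LSK, 634 to 1040 in CMP and 3380 to 5000 in GMP arrays, so the sorted groups matched their gates on this gene. Xist, which silences an X chromosome in female cells, lay at 18.7 to 29.7 on wild-type sorted arrays, at 4980 to 6630 on knockout sorted arrays and at 18.4 to 21.9 on replated arrays. The Y-linked Eif2s3y lay at 772 to 1200, at 6.47 to 12.5 and at 2060 to 2080. Genotype and sex-linked expression therefore cannot be told apart in the sorted groups, and this touches every genotype difference given.

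**Figure D1:**
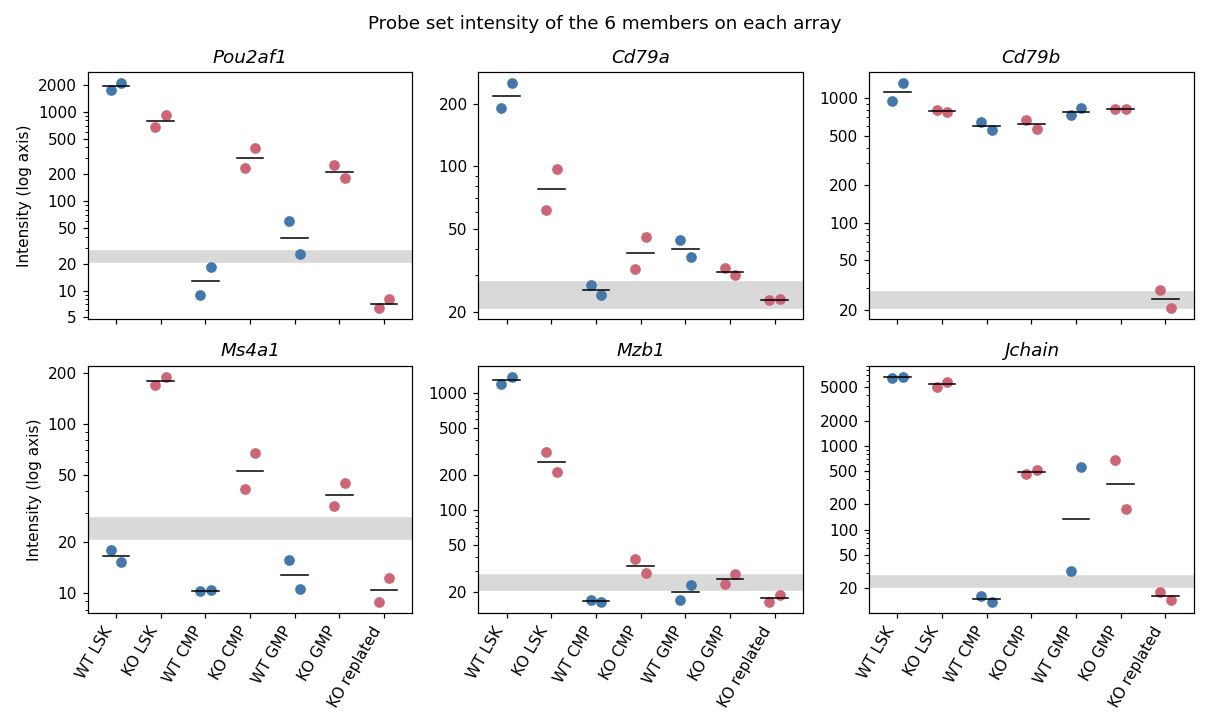
Intensity of each of the 6 genes on every array (log axis), by group, with 1 point per array and the range of array floors marked. The LSK arrays are the brightest for Pou2af1, Cd79a, Mzb1 and Jchain. Ms4a1, at its brighter probe set, is above the floor on the 6 knockout sorted arrays only.

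In LSK cells 5 of the 6 genes were lower in the knockout and Ms4a1 was higher. No gene overlapped between genotypes, where 15.1% of all genes were lower and 18.1% higher without overlap; since this comparison chose the genes, nothing is read from the count. Mzb1 had the largest decrease. Its intensities were 1208 and 1380 on the wild-type arrays and 317 and 213 on the knockout arrays. Both knockout arrays were far below both wild-type arrays, by 2.31 ± 0.24 (SE, n = 2 arrays a group) on the log2 scale or 4.97-fold. Cd79a read 190 and 251 in wild type and 61.9 and 96.6 in the knockout. The log2 difference was −1.50 ± 0.25, or 2.83-fold lower. Pou2af1 read 1766 and 2087 in wild type and 677 and 925 in the knockout. Its coactivator transcript was lower by 1.28 ± 0.46 on the log2 scale, or 2.43-fold, and remained bright on both knockout arrays.

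Cd79b, the partner chain of Cd79a, differed less in LSK cells. It read 953 and 1314 in wild type and 804 and 766 in the knockout, a log2 difference of −0.51 ± 0.21 or 1.43-fold lower. Jchain read 6461 and 6628 in wild type and 5057 and 5766 in the knockout. That is 1.21-fold lower, with a log2 difference of −0.28 ± 1.08; the standard error is wide because the Jchain arrays of the GMP groups lie far apart and all groups share the estimate. Ms4a1 went the other way, at 18.1 and 15.2 in wild type, below the floor, against 169 and 190 in the knockout. CD20 transcript was thus at least 8.25-fold higher in knockout LSK cells, with a fitted log2 difference of 3.43 ± 0.29. A second Ms4a1 probe set read 13.1 and 24.7 against 88.8 and 131, with a log2 difference of 2.58 ± 0.44 in the same direction. In these bulk samples, fewer cells of a type and less RNA per cell cannot be told apart, here or in the values that follow.

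In CMP cells all 6 genes had a higher level in the knockout, and 5 did so without overlap, against 22.9% of all genes. Jchain read 16.2 and 13.7 in wild type, below the floor, and 457 and 514 in the knockout. Both knockout arrays were far above the floor, the knockout level was at least 19.9-fold higher, and the fitted log2 difference was 5.02 ± 1.08. Pou2af1 read 9.01 and 18.2 in wild type, also below the floor, and 232 and 391 in the knockout. The coactivator was at least 12.3-fold higher, with a fitted difference of 4.55 ± 0.46. Ms4a1 read 10.3 and 10.5 in wild type and 41.4 and 67.2 in the knockout. That is at least 2.16-fold higher, and its second probe set had only 1 of the CMP arrays above the floor, at 27.6 against 12.5 on the other knockout array.

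Mzb1 and Cd79a were dim in CMP cells of either genotype. Mzb1 read 17.2 and 16.5 in wild type and 38.6 and 29 in the knockout, at least 1.37-fold higher. Cd79a read 27 and 24.1 in wild type and 32 and 45.9 in the knockout, a log2 difference of 0.59 ± 0.25 or 1.5-fold. Both knockout groups sat just above the floor, so these differences are small in absolute brightness. Cd79b read 639 and 556 in wild type and 668 and 564 in the knockout. Its genotypes overlapped, with a log2 difference of 0.04 ± 0.21, which was −0.06 without wild-type replicate 2 and −0.08 without knockout replicate 1.

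The genotype difference in LSK cells minus that in CMP cells was −5.83 ± 0.65 for Pou2af1 on the log2 scale. For Jchain it was −5.30 ± 1.52, for Mzb1 −3.31 ± 0.33, for Cd79a −2.09 ± 0.35 and for Cd79b −0.55 ± 0.29. For Ms4a1 it was 1.08 ± 0.41, or 1.43 and 0.74 without 1 knockout CMP array. Cd79b lay above the floor on every LSK and CMP array. For Pou2af1, Jchain, Mzb1 and Ms4a1 the wild-type CMP arrays lay below it, and for Ms4a1 the wild-type LSK arrays too. For Cd79a 1 wild-type CMP array did. The differences of these genes, Cd79b aside, are therefore fits that include values without a measured level. With such values raised to the floor the difference was −4.90 for Pou2af1, −4.59 for Jchain, −2.77 for Mzb1, −2.01 for Cd79a and 1.93 for Ms4a1. Over all genes, 513 of 18194, or 2.82%, were lower in knockout LSK and higher in knockout CMP cells without overlap on either side. The 4 genes of this kind here were Pou2af1, Cd79a, Mzb1 and Jchain. Since these differences chose the genes, nothing is read from this count or the next. With at least 1 log2 unit in each direction, on values as measured, there were 15 genes, or 0.0824%. Pou2af1 was inside that line, at a fall of 1.28 and a rise of 4.55, and so was the recombinase gene Rag1, at 3.28 and 1.42. Mzb1 had a fall of 2.31 and a fitted rise of 0.99. With CMP values below the floor raised to it, the rise was 0.46 for Mzb1 and 0.95 for Rag1, so their place at this line is not settled.

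**Figure D2:**
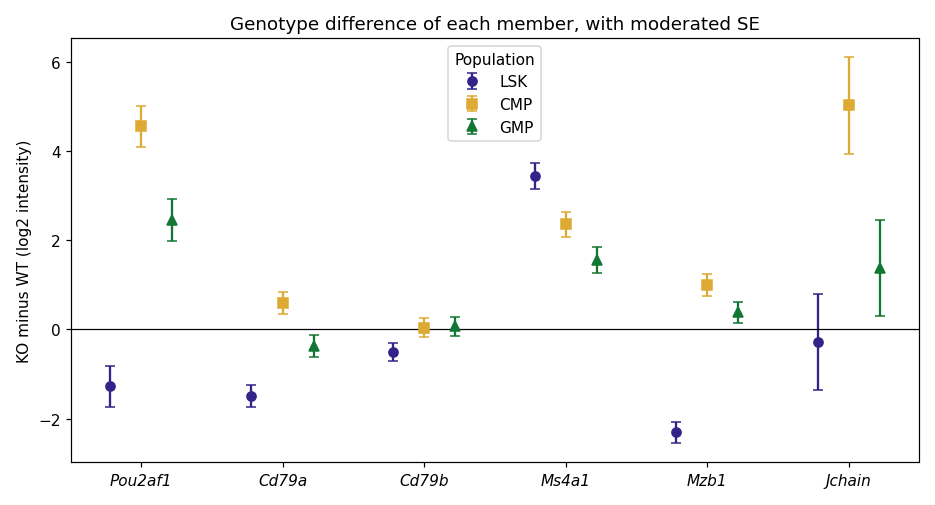
Log2 difference, knockout minus wild type, of each of the 6 genes in LSK, CMP and GMP cells, with standard error bars (2 arrays a group). Pou2af1 runs from −1.28 in LSK to 4.55 in CMP and 2.45 in GMP cells, while Ms4a1 is above 0 in all 3 populations.

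The same values can be set along the sorted populations, as a description only, since a difference between these steps restates the differences by which the genes were chosen. Between wild-type LSK and CMP cells 5 of the 6 genes were lower without overlap, against 17.6% of all genes. Ms4a1, at its brighter probe set, was below the floor in both. Between the knockout groups all 6 were lower without overlap, against 15.3%. Jchain was at least 268-fold lower in wild-type CMP than in wild-type LSK cells, and 11.1-fold lower between the knockout groups. Pou2af1 was at least 78.7-fold lower in wild type and 2.63-fold lower in the knockout. Mzb1 was at least 52.9-fold lower in wild type and 7.75-fold lower in the knockout. Cd79a was 8.57-fold lower in wild type. In each of these 4 genes LSK lay above CMP in both genotypes.

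Ordered by level, Pou2af1 ran from wild-type LSK at 1920 and knockout LSK at 791 to knockout CMP at 301 and knockout GMP at 213, which overlapped. Wild-type GMP at 39, wild-type CMP at 12.8 and replated cells at 7.14 followed, the last pair below the floor. Jchain ran from wild-type LSK at 6540 and knockout LSK at 5400 to knockout CMP at 485, knockout GMP at 348 and wild-type GMP at 134. The neighbours among those last 3 groups overlapped. Mzb1 stood at 1290 in wild-type LSK and 260 in knockout LSK cells, and no other group was above 33.5. Cd79a ran from 219 in wild-type LSK and 77.3 in knockout LSK to between 25.5 and 40.1 in the CMP and GMP groups, where wild-type GMP, knockout CMP and knockout GMP overlapped in sequence. Cd79b kept within 596 and 1120 over all sorted groups, with knockout LSK and wild-type GMP overlapping. Ms4a1 was highest in knockout LSK at 179, followed by knockout CMP at 52.8 and knockout GMP at 38.1, which overlapped.

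GMP cells were not used to choose the genes, so their genotype difference was tested. None of the 6 genes passed an adjusted p of 0.05 by limma over all 18194 genes, and 2 of the 6, Pou2af1 and Ms4a1, had an unadjusted p below 0.05. Of all genes 0.0934% passed and 4.43% had an unadjusted p below 0.05. Pou2af1 read 59.6 and 25.5 in wild-type and 251 and 180 in knockout GMP cells. Both knockout arrays were higher, by 2.45 ± 0.46 on the log2 scale or 5.45-fold (95% interval 1.41 to 3.49, adjusted p = 0.218 by limma). Over 24 other settings its adjusted p lay between 0.0783 and 0.781. The second Ms4a1 probe set read 8.47 and 9.64 in wild-type and 23.9 and 12.7 in knockout GMP cells, with only the 23.9 above the floor. Its fitted difference was 0.95 ± 0.44 (unadjusted p = 0.0608 by limma). At its brighter probe set, Ms4a1 read 15.7 and 10.6 in wild type, below the floor, and 32.6 and 44.5 in the knockout. Both knockout arrays were above the floor, and the knockout level was at least 1.64-fold higher. The fitted difference was 1.56 ± 0.29 (95% interval 0.91 to 2.21, adjusted p = 0.206 by limma). With values below the floor raised to it, the Ms4a1 difference was 0.71. The range of its adjusted p was 0.055 to 0.735.

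The other genes differed little in GMP cells, or not beyond their spread. Jchain read 32.2 and 561 in wild type, 17.4-fold apart, and 684 and 177 in the knockout, 3.87-fold apart. The genotypes overlapped, with a log2 difference of 1.37 ± 1.08 (95% interval −1.05 to 3.80, adjusted p = 1 by limma) that was −0.69 without wild-type replicate 1 and 3.43 without wild-type replicate 2. Mzb1 read 17.1 and 23.1 in wild type, below the floor, and 23.6 and 28.3 in the knockout, a fitted difference of 0.38 ± 0.24 (95% interval −0.15 to 0.91). Cd79a read 44.2 and 36.4 in wild type and 32.3 and 29.9 in the knockout. It was the only one of the 6 with a lower level in knockout GMP cells, by 0.37 ± 0.25 on the log2 scale (95% interval −0.93 to 0.20). Cd79b read 727 and 832 in wild type and 815 and 814 in the knockout, with a difference of 0.07 ± 0.21 (95% interval −0.40 to 0.53). The adjusted p by limma was 1 for each of these 3 genes. By non-overlap alone, Pou2af1, Ms4a1 and Mzb1 were higher, against 19.1% of all genes, and Cd79a was lower, against 15.9%.

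Replated knockout cells were compared with knockout GMP cells, the sorted knockout group that the choice of genes did not use. Pou2af1, Cd79b, Ms4a1 and Jchain were lower in replated cells at an adjusted p below 0.05, which is 4 of the 6, against 15.2% of all genes called lower and 25.3% called in either direction. Cd79b had the smallest p. It read 29.2 and 20.9 in replated cells against 815 and 814 in knockout GMP cells, 32.9-fold lower or −5.04 ± 0.21 on the log2 scale (adjusted p = 1.56e-07 by limma). A gene that lay at 556 or more on all 12 sorted arrays was thus at the floor after replating. Pou2af1 read 6.37 and 7.99, below the floor, and was at least 9.78-fold lower (fitted −4.90 ± 0.46, adjusted p = 5.08e-05 by limma). Ms4a1 read 8.91 and 12.3 and was at least 1.75-fold lower (fitted −1.86 ± 0.29, adjusted p = 0.00111 by limma).

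Jchain read 17.9 and 14.2 in replated cells, both below the floor, and was at least 16-fold lower (fitted −4.44 ± 1.08, adjusted p = 0.0134 by limma). The Jchain call was lost without knockout GMP replicate 1, at an adjusted p of 0.104, and without replated replicate 1 or 2, at 0.0587 and 0.0773; the range over 23 settings was 0.000384 to 0.104. Mzb1 read 16.5 and 18.8, below the floor, with a fitted difference of −0.55 ± 0.24 (adjusted p = 0.131 by limma). Cd79a read 22.7 and 22.9, with a difference of −0.45 ± 0.25 (adjusted p = 0.259 by limma). In knockout GMP cells these 2 genes already stood close to the floor. All 6 genes were lower without overlap, against 38.2% of all genes. Sex-linked genes also differed, as Xist fell and Eif2s3y rose in replated cells (adjusted p = 2.64e-09 and 9.82e-09 by limma). Culture, CD150 selection, the starting population and sex-linked expression differ together in this comparison and cannot be told apart.

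The 6 genes did not follow each other equally across arrays. As a description over 14 arrays that share groups, Pearson's r of log2 intensity was 0.95 between Cd79a and Mzb1, 0.92 between Pou2af1 and Jchain and 0.84 between Mzb1 and Jchain. Between the paired receptor chains Cd79a and Cd79b it was 0.51, and 0.77 over the 12 sorted arrays. Ms4a1 had r of 0.26 with Cd79a and 0.34 with Mzb1. The genes nearest to each were taken by r among 13162 other genes above the floor on at least 2 arrays. Nearest to Pou2af1 were Ebf1 at 0.932, Igk, named for the kappa light chain locus, at 0.924, and Cd74, the invariant chain, at 0.921. Ebf1, a transcription factor required for the B lineage, read 1350 and 1510 in wild-type and 1020 and 754 in knockout LSK cells, 13.9 and 41.5 against 129 and 61.8 in CMP cells, and 27.7 and 20.6 against 251 and 169 in GMP cells. Over the sorted arrays alone Ebf1 was again nearest to Pou2af1, at 0.926.

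Jchain was nearest to immunoglobulin light chain probe sets, with Igkv8-30 at 0.981 and Igk at 0.975, followed by Pabpc4l at 0.958. The same 3 genes were nearest over the 12 sorted arrays. Igk read 64.7 and 950 on the wild-type GMP arrays and 1020 and 405 on the knockout GMP arrays. Both Jchain and Igk were thus high on wild-type GMP replicate 2 and on knockout GMP replicate 1, whereas Pou2af1, at 25.5, and Ebf1, at 20.6, were low on that wild-type array. Probe sets for kappa variable segments can bind related transcripts, so the segment named is uncertain. Mzb1 was nearest to Igkv14-111 at 0.977, Sema3d at 0.959 and Igkv15-103 at 0.958. Cd79a was nearest to Igkv14-111 at 0.952, Fcrl1 at 0.942 and Trgv1 at 0.934. Igkv14-111 had a level of 1030 in wild-type LSK and 119 in knockout LSK cells and of 6.78 to 7.9, below the floor, in the other groups. Sema3d and Igkv15-103 were likewise above the floor on LSK arrays only, and Trgv1 on wild-type LSK arrays only. The r of these genes therefore rests on LSK arrays, which the choice of genes used, and nothing further is read from it.

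Ms4a1 kept other company. Its nearest gene was Ifi44l, an interferon-induced gene, at 0.949, followed by Slc1a1 at 0.902 and Gm2137 at 0.889. Ifi44l had levels of 4.9 in wild-type and 909 in knockout LSK cells, 6.17 and 372 in CMP cells, 7.02 and 57.8 in GMP cells and 5.24 in replated cells. It was above the floor on knockout sorted arrays only, so its r with Ms4a1 rests on those arrays. Over the sorted arrays the interferon-induced Gbp2b, at 0.933, joined Ifi44l and Slc1a1. Gbp2b had levels of 7.29 in wild-type and 664 in knockout LSK cells. It kept a level of 128 in replated cells, where Ms4a1 was below the floor. What links these genes to Ms4a1, interferon included, was not tested. The nearest genes of Cd79b were Pdk1 at 0.989, Ctss at 0.988 and Abcg2 at 0.988, which like it had lower levels after replating than in any sorted group. Pdk1 still had a level of 430 there. Ctss, for example, had levels of 958 to 1570 in sorted groups and 20 in replated cells. Over the 12 sorted arrays none of those 3 remained among its nearest, which were Glmp at 0.904, Gpat3 and Igll1.

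**Figure D3:**
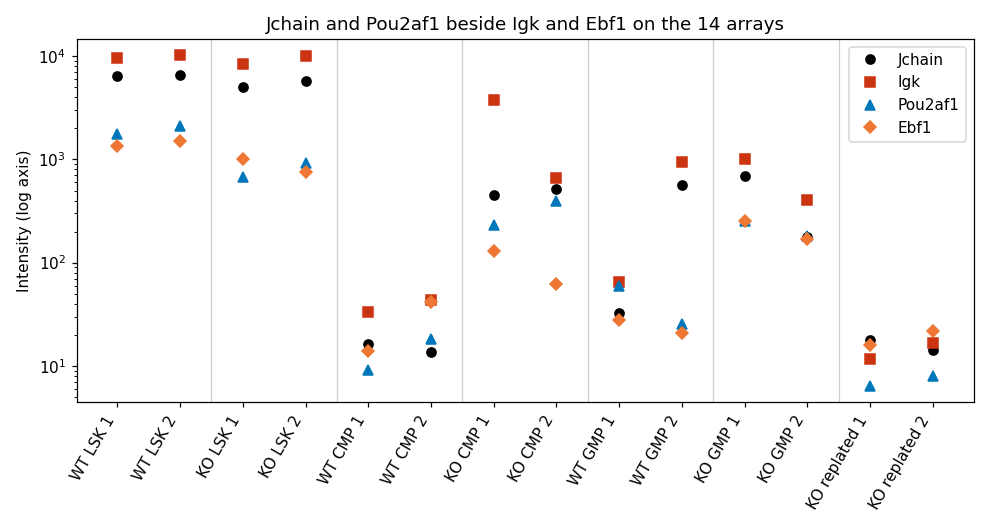
Intensity by array (log axis) of Pou2af1 beside Ebf1 and of Jchain beside Igk. Jchain and Igk are both high on wild-type GMP replicate 2, at 561 and 950, while Pou2af1 and Ebf1 are at 25.5 and 20.6 there.

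The wider B lineage was described by 5 lists of 76 genes, 68 of them measured. In LSK cells 1 of the 68 passed, in CMP cells 0, in GMP cells 0 and in the test of the LSK against the CMP difference 0, all by limma. Of all genes 0.264%, 0.121%, 0.0934% and 0.022% passed. At an unadjusted p below 0.05 there were 17, 10, 6 and 10 of the 68, where 9.91%, 6.13%, 4.43% and 6.69% of all genes were. The lists were chosen with earlier results of these data known, so nothing is read from these shares. The gene that fell in LSK cells was Rag2, which with Rag1 cuts DNA for receptor rearrangement. Its level was 129 in wild-type and 36.4 in knockout LSK cells, 3.53-fold lower (log2 −1.82 ± 0.26, adjusted p = 0.0337 by limma). Its call was lost in 10 of 24 other settings, with adjusted p from 0.00337 to 0.672, including when only the LSK or only the sorted arrays were fitted. The other 8 settings left out wild-type LSK replicate 2, knockout LSK replicate 1, or any 1 of the wild-type CMP, knockout GMP and replated arrays.

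All 7 measured genes of the recombinase and surrogate light chain list had lower levels in knockout LSK cells, with a median of −2.23 against 0.01 over all genes. Igll1, a surrogate light chain, had levels of 2920 and 457 (log2 −2.68 ± 0.44, adjusted p = 0.0563 by limma). Rag1 had levels of 1040 and 107 (−3.28 ± 0.65, adjusted p = 0.0931). In CMP cells the median of the list was −0.56 against 0.04, with 5 of 7 lower. Vpreb1, the partner of Igll1, had levels of 662 in wild-type and 93.6 in knockout CMP cells (−2.82 ± 0.76, adjusted p = 0.461), so it lay lower in the knockout in CMP cells, where Pou2af1 and Jchain lay higher. Rag1 read 13.4 and 16.7 in wild-type CMP cells, below the floor, and 87.5 and 18.2 in the knockout, of which only the first was above it. The log2 difference of 1.42 (adjusted p = 0.827) was 0.28 without knockout replicate 1 and 2.55 without replicate 2. The test of the LSK against the CMP difference gave −4.69 ± 0.92 for Rag1 (adjusted p = 0.277). In GMP cells the list's median was 0.26 against 0.02.

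Of 13 measured B cell transcription factors, 4 had higher and 9 lower values in LSK cells, 8 and 5 in CMP cells, and 11 and 2 in GMP cells, and none passed. In LSK cells the smallest p belonged to Bcl6, a repressor of germinal centre cells, at −0.84 (adjusted p = 0.276 by limma), and Ikzf3, which encodes Aiolos, at −2.54 (0.329). In CMP cells Spib had levels of 39.1 in wild type and 252 in the knockout (2.68 ± 0.85, adjusted p = 0.595). Ebf1 had levels of 24 and 89.1 there (1.89 ± 0.51, adjusted p = 0.461), and 1.56 with 1 wild-type array raised to its floor. In GMP cells Ebf1 had levels of 23.9 and 206, 8.64-fold higher (3.11 ± 0.51, adjusted p = 0.112), and Spib a difference of 2.06 ± 0.85 (adjusted p = 1). Neither Ebf1 nor Spib passed in any of these.

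**Figure D4:**
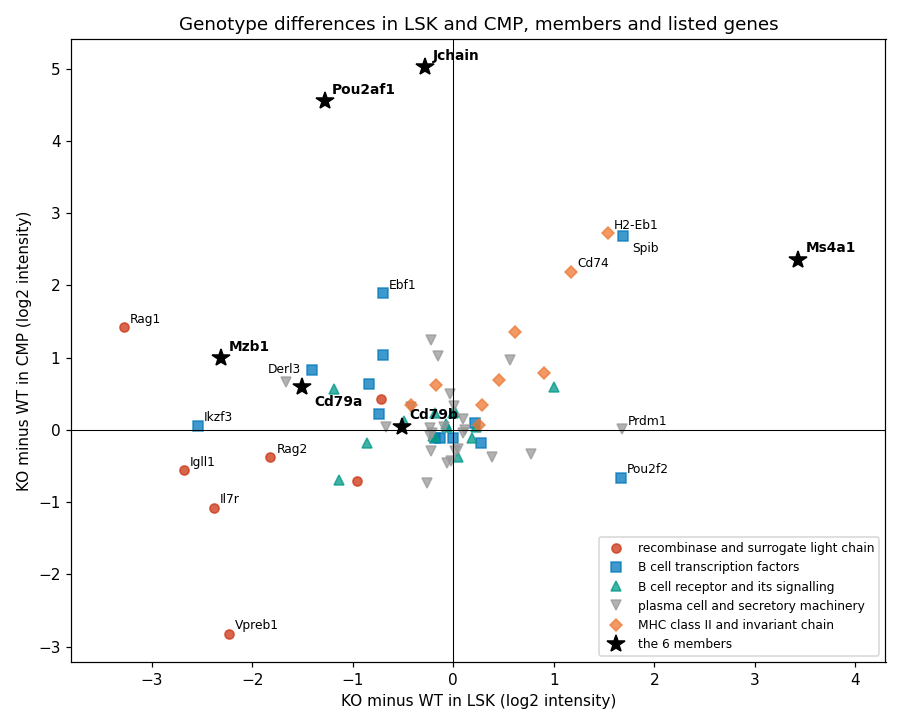
Log2 difference, knockout minus wild type, in LSK cells (horizontal axis) and in CMP cells (vertical axis) for the measured genes of the B lineage lists and the 6 genes, 1 point per gene. Pou2af1 and Jchain lie in the upper left, Ms4a1 in the upper right and Vpreb1 in the lower left.

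None of 15 measured B cell receptor and signalling genes passed in LSK, CMP or GMP cells, and their medians were −0.07, 0.04 and −0.02 (2, 0 and 0 at an unadjusted p below 0.05). In LSK cells the adaptor Blnk had a difference of −1.19 (adjusted p = 0.397 by limma) and Fcrla one of 1 (0.474). Fcer2a was not above the floor on any array. In CMP cells Fcrla was below the floor in wild type, and no fold is given. In GMP cells it was at least 1.14-fold higher in the knockout, and Bank1 was above the floor on wild-type replicate 2 only, at 46.2. None of the 24 plasma cell and secretory genes, the list that Mzb1 and Jchain belong beside, passed either, with medians of −0.04, 0 and −0.02 (5, 3 and 3 unadjusted). Prdm1, which encodes the plasma cell regulator Blimp-1, was below the floor in wild-type LSK cells and at least 2.68-fold higher in the knockout (adjusted p = 0.0606), and Herpud1, of the endoplasmic reticulum stress response, one of 0.77 (0.186). In CMP cells the chaperone Pdia6 was at −0.73 (0.5) and Tent5c at 0.96 (0.704). In GMP cells Sdc1, which encodes the plasma cell antigen CD138, was at 0.92 ± 0.23 (0.701).

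Of the 5 lists, MHC class II genes and the invariant chain had mostly higher values in the knockout in each population. Higher values were found for 7 of 9 in LSK, 9 of 9 in CMP and 8 of 9 in GMP cells, with medians of 0.46, 0.69 and 0.53, and none passed (3, 3 and 1 unadjusted). H2-Eb1 was at 1.54 in LSK (adjusted p = 0.381 by limma), where it was 0.60 without wild-type replicate 1 and 2.49 (0.0413) without replicate 2. In CMP cells it was at 2.72 ± 0.55 (0.253), and passed without either wild-type LSK array (0.0347). Over the settings run its adjusted p lay between 0.0413 and 0.993 in LSK and between 0.0347 and 0.769 in CMP cells. Cd74 read 503 and 1570 in wild-type and 2730 and 1470 in knockout LSK cells, which overlap, and its difference of 1.17 (0.5) ranged from 0.35 without wild-type replicate 1 to 1.99 without replicate 2. It was at 2.19 ± 0.51 in CMP (0.371) and at 2.15 ± 0.51 in GMP cells (0.599). The direction was that of Ms4a1 in all 3 populations.

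After replating, 31 of the 68 genes passed against knockout GMP cells, 9 higher and 22 lower (25.3% of all genes passed). Of the transcription factors 1 rose and 6 fell. Bcl11a fell by 2.49 (adjusted p = 9.67e-05 by limma), Tcf3, which encodes E2A, by 1.53 (0.000276), and Ebf1 was at least 9.49-fold lower (0.000793). Of the receptor genes 4 rose and 2 fell. Cd24a fell by 2.16 (1.17e-06) and the heavy chain gene Ighm fell by 2.50 (0.000411), while Btk rose by 1.82 (0.000859) and Bank1, below the floor in knockout GMP cells, was at least 5.26-fold higher (0.00179). Dntt, the terminal transferase, was at least 11.9-fold lower (0.000345) and Igll1 fell by 1.73 (0.0172). Of the secretory list 4 rose and 7 fell, among them Fkbp11, which fell by 4.21 (1.61e-06), Sdc1, by 2.91 (1.51e-05), and Tent5c, which rose by 4.27 (1.67e-05). Of the MHC class II list 5 fell and none rose, with H2-Ab1 lower by 4.04 (6.69e-05).

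Markers of other cells that a gate could hold were read beside these results. Of 4 measured B cell markers, Pax5 and Cd22 did not exceed the floor on any array, Pax5 at 14.3 to 19.5, while the others, Ebf1 and Ighm, were above it in LSK cells. The summed B cell markers were 5110 to 5970 in wild-type and 4840 to 6460 in knockout LSK arrays, 374 to 476 and 450 to 472 in CMP arrays, and 472 to 527 and 654 to 923 in GMP arrays. They were 134 to 147 after replating. Of 5 plasma cell markers, Tnfrsf17 was not above the floor in any group and Prdm1 only in knockout LSK cells. Their sum was 3770 to 4510 and 3640 to 4220 in LSK, 1260 to 1480 and 1560 to 1760 in CMP, 1000 to 1330 and 1380 to 1390 in GMP, and 1760 to 1980 in replated arrays. The sum was thus higher in knockout than in wild-type CMP and GMP arrays, but not through all markers. Sdc1 had levels of 759 in wild-type and 1070 in knockout CMP cells, and of 193 and 365 in GMP cells. The dimmer Irf4 read 32.7 and 27.3 in wild-type and 181 and 27.6 in knockout CMP cells, which overlap. In GMP cells it read 17.8 and 75.6 in wild type, the first below the floor, and 139 and 97.6 in the knockout. Xbp1 was not higher, at 538 and 441 in CMP and 890 and 873 in GMP cells. The part of plasma cells in the result was not tested.

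Plasmacytoid dendritic cells also use Spib and can carry several of these transcripts. The sum of 6 of their markers was 5270 to 6550 in wild-type and 4500 to 4980 in knockout LSK arrays, 4210 to 4500 and 4470 to 4620 in CMP, 2640 to 2700 and 2860 to 3390 in GMP, and 652 to 736 in replated arrays. In sorted groups this sum mostly follows Tcf4, with levels of 4790 in wild-type and 4240 in knockout LSK cells. There Ccr9 had 384 and 38.5, Klk1 235 and 107, and Cox6a2 173 and 80.3. Siglech, at 28.2 and 38.1, and Ly6d, at 205 and 209, were not lower. None of 13 genes in the wider list passed in LSK, CMP or GMP cells (5, 2 and 1 unadjusted). The sum of 3 T cell markers was 98.3 to 298 in knockout LSK arrays, with replicate 2 high, and 46.2 to 98.3 elsewhere. Ms4a1 was 169 and 190 on those 2 knockout arrays. The NK cell marker Ncr1 was not above the floor in any group, and 2 NK cell markers summed to 66.2 to 161 in wild-type LSK and 17.8 to 50 elsewhere. The sum of 4 late neutrophil markers was 3940 to 5110 in wild-type and 2690 to 4140 in knockout LSK arrays, 2360 to 3870 and 3890 to 4510 in CMP, 2560 to 2600 and 2360 to 3270 in GMP, and 87.9 to 96.2 after replating. Of 9 genes in the wider neutrophil list, 9 had lower values in knockout LSK cells (median −0.44 against 0.01 over all genes), and in CMP cells 7 had higher and 2 lower values (median 0.26 against 0.04). The LSK difference minus the CMP difference was below 0 for all 9, with a median of −0.56 against −0.03 over all genes. By direction alone, 7 of the 9 ran as Pou2af1, Cd79a, Mzb1 and Jchain did. Ltf and Mmp8 were lower in the knockout in CMP cells too, at −0.52 and −0.17. The sum of 2 erythroid markers was 85.7 to 126 in wild-type and 72.3 to 201 in knockout LSK arrays, 64 to 69.1 and 139 to 142 in CMP, 32.3 to 140 and 78.3 to 98.9 in GMP, and 38.2 to 38.3 after replating. In CMP arrays it was thus higher in the knockout without overlap, but Alas2 was not above the floor on any array, so the sum follows Slc4a1. Of 7 measured genes in the wider erythroid list, 3 had higher and 4 lower values in CMP cells (median −0.03 against 0.04). The part of any of these cell types in the results was not tested. No gene of the T cell, NK cell, neutrophil or erythroid lists passed in LSK, CMP or GMP cells.

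The 6 genes lie on different chromosomes, and their genomic neighbours were read to see whether a change covered a region. Of 24 neighbours, 2 on each side of each gene, 14 were above the floor on at least 2 arrays. None passed in LSK, CMP or GMP cells by limma, and 1, 0 and 0 had an unadjusted p below 0.05. Over all 24, dim ones included, differences ran from −0.52 to 1.31 in LSK, −0.36 to 0.45 in CMP and −0.33 to 0.66 in GMP cells. The −0.52 was Gh, above the floor on 4 arrays, and the 0.66 was Ms4a7, not above it on any array. The highest was Rufy3, a neighbour of Jchain, at 1.31 in LSK cells (adjusted p = 0.418).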

How the data were processed

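RNA (5 ng per sample, amplified and biotin-labelled, per the labels' protocols) was measured on 14 one-colour expression arrays in 7 groups of 2. The authors deposited 1 table of normalised intensities on a linear scale; RMA is named in the submitters' processing notes, and the sources used here do not give its software or parameters. Intensities were taken to log2 with no further normalisation. Of 45101 probe sets, 34958 name 1 gene in the platform annotation, 932 several (not used) and 9211 are not listed; each gene was read by its brightest probe set. One limma 3.58.1 model (R 4.3.3) of 7 group means was fitted to 18194 genes (7 residual and 2.19 prior degrees of freedom), with Benjamini-Hochberg adjustment over all genes and a threshold of 0.05. The number of arrays limits the precision. The fit was also run on simulated data with independent normal noise. That run does not address shared mice, sex-linked expression or values at the floor. The floor was the brightest of 27 bacterial control probe sets per array.

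The 6 genes and the gene lists were chosen with earlier results of these data known. Named were the 6 genes, up to 4 list genes past the threshold per comparison or 2 with the smallest p where none passed (others were named after their values were seen), and the 3 genes with the highest correlation to each member. Alternatives were centring, quantile normalisation, the floor, a filter on dim genes, probe set averaging, other samples in the fit, an intensity trend, a replicate block and leaving out each array. Promoter sequences are from RefSeq on GRCm38.p6. They are printed for 3 of the 6 genes.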

Additional observations from a re-analysis of the deposited data

How the results depend on the processing

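With 2 arrays a group, small differences could not be called, and values at the floor have no order. In 24 alternative settings no member passed in GMP cells. Against replated cells 4 members passed in the 9 settings that left out no single array and 3 to 4 when an array was left out. The B lineage list count in LSK cells, 1 as reported, was 2 with each array centred, 2 over genes above the floor and 3 with values raised to the floor, with probe sets averaged or with an intensity trend. It was 0 over the 12 sorted arrays and 0 over the LSK arrays alone, where fewer samples set the spread, and 0 to 3 when an array was left out. For CMP cells the count of 0 became 0 to 1 when an array was left out. For the LSK against the CMP difference the count of 0 became 1 (Igll1) with probe sets averaged and 0 to 1 when an array was left out. Without wild-type GMP replicate 1 the GMP difference reversed to −0.03 for Cd79b and −0.69 for Jchain, and without replicate 2 it was 0.16 and 3.43. The cause was not tested. Deviations of arrays with the same replicate number correlated at −0.1 to 0.1 over 21 pairs of groups. With 2 arrays a group, this does not settle whether the numbers pair the arrays. The replicate block gave 2 LSK list genes, 0 in CMP and GMP cells, and 4 members after replating.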
